A study of Mus musculus with 18 samples.

Results

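Stearoyl-CoA desaturases 1 and 2, encoded by Scd1 and Scd2, were followed together with Plin2, which encodes a coat protein of lipid droplets, through 6 days of erythroid differentiation. Each of these 3 genes had 1 probe with its symbol in the platform annotation, out of 5974 genes with a symbol of their own on the array. The genes were chosen by their symbols with their ratios on all 18 arrays in view, so their values are a description and are given without p-values. The cells were murine erythroleukemia (MEL) cells, an established line of transformed mouse erythroid precursors, treated with hexamethylene bisacetamide (HMBA), a compound that sends them toward hemoglobin production. Each two-colour array paired RNA taken 1, 2, 3, 4, 5 or 6 days after HMBA with RNA of control cells without HMBA, and on day 0 arrays both channels held control RNA. All arrays came from 1 line, and for its strain, the HMBA dose and the number of cultures the sources used here give nothing.

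The 18 arrays formed 2 series. Series A had 1 array for each day from 0 to 6, and series B the same without day 1. Another 5 arrays, titled SD and belonging to series B, covered days 0, 2, 3, 5 and 6, and apart from day 0 their channel labels were exchanged. Every value is a log2 ratio minus the median of its array, so 1 stands for a doubling of the ratio relative to the middle probe. The likely direction is induced over control, because the labels place the induced RNA in channel 1 on series A and B. Alpha-globin, a product of differentiation, points the same way. Its probe, annotated with the pseudogene symbol Hba-ps3, read 0.51 and 0.67 on day 0 and between 3.87 and 6.38 on days 4 to 6. Which alpha-globin transcript this probe bound was not tested. On the SD arrays Hba-ps3 read -4.25, -2.78 and -4.20 on days 2, 5 and 6 but 0.94 on day 3 and 1.73 on day 0. The beta-globin probe Hbb-b2 read 1.05, -0.09, -0.86 and -3.11 on SD days 2, 3, 5 and 6. On day 2 of SD both globins thus had opposite signs, and SD values are given as deposited and with the sign turned.

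Arrays held values for 2008 to 4945 of 6868 probes. Depth of signal behind a ratio is unknown, and the number of arrays limits the precision. Arrays of days 1, 2 and 3 of series A stood apart, with a median correlation across probes of 0.16, 0.05 and 0.22 with the other arrays outside SD, against 0.43 to 0.59 for the other 10. Of the erythroid markers, 6 of 7 probes with a late value were higher on days 4 to 6 than on day 0, among them Alas2, the erythroid enzyme that starts heme synthesis. Of the adipocyte and macrophage markers, which name other lipid-storing cells, 0 of 5 probes in each list were measured on 8 or more of the 13 arrays of series A and B. Megakaryocyte markers had 2 of 2 probes higher late than on day 0, Itga2b by 2.49 log2 and Pf4 by 0.10. Mast cell markers had 1 of 2, with a late difference of 0.66 for Kit and -3.14 for Mcpt2. Adipocyte markers ranged from -1.97 to 1.49 on day 0 and from -1.80 to 1.74 on days 4 to 6, and their part in the values of Plin2 was not tested.

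Stearoyl-CoA desaturases sit in the membrane of the endoplasmic reticulum and place a double bond in saturated fatty acyl-CoAs, turning stearoyl-CoA into oleoyl-CoA. They draw electrons from cytochrome b5 and its reductase. The products enter membrane phospholipids, triglycerides and cholesteryl esters, and the desaturase genes are classic targets of the sterol regulatory element binding proteins (SREBPs). Triglycerides and cholesteryl esters are stored in lipid droplets, whose surface carries perilipins such as Plin2. Scd1 is best known from liver and fat and Scd2 from brain. In the RefSeq gene order of GRCm38.p6 the genes are close neighbours, with Scd4, a further desaturase gene, as the 1 protein-coding gene between them.

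Scd1, the desaturase of liver and fat, was high on days 3, 4 and 5 of series A. Its probe (M006300_01, accession NM_009127) read -0.06 on day 0 of that series and 2.97, 3.43, 2.30 and 0.41 on days 3, 4, 5 and 6. It stood at the 99.7th percentile of all probes of the array on day 3, at the 99.6th a day later and at the 97.6th on day 5, and by day 6 it was back at the 65.6th. Days 1 and 2 of series A had no value. The day 3 array of series A was one of those that stood apart, at a median correlation of 0.22, and held values for 37.2 percent of probes. Within series A and B it also gave the highest value of Scd2 and the lowest of Plin2.

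In series B the Scd1 probe read -0.95 before HMBA and 1.54, -0.80, 0.70 and 0.18 on days 2, 3, 5 and 6, with no value on day 4. Its highest reading there was that of day 2, at the 87.7th percentile, while on day 3 it lay at the 30.2nd. The series therefore parted most on day 3, by 3.77 log2, and least on day 6, by 0.23 log2.

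Scd2, the desaturase best known from brain, followed the same course in series A. Its probe (M000090_01, accession M26270) read -0.19 and -1.07 on days 0 and 1, 2.92, 2.21 and 2.42 on days 3, 4 and 5, and -0.18 on day 6, with no value on day 2. Between day 1 and day 3 it went from the 13.5th to the 99.5th percentile, and on day 6 it was at the 43.9th. In series B its values on days 0, 2, 3, 5 and 6 were -0.71, -0.14, -0.92, 0.22 and -0.02, and day 4 had none. None of these readings of series B passed the 55.6th percentile of its array.

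Plin2 ran the other way on most days. Its probe (M000116_01, accession M93275) read 0.36, 1.56, 0.45, -4.12, 0.14, -2.09 and -0.80 on days 0 to 6 of series A. The day 3 value was at the 0.176th percentile of its array, among the lowest of all probes, and the day 1 value at the 98.3rd. Series B gave 0.57, -1.28, -1.21 and -0.53 on days 0, 2, 5 and 6 and no value on days 3 and 4. Every value of series B after day 0 was below 0, as were those of days 3, 5 and 6 of series A.

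**Figure D1:**
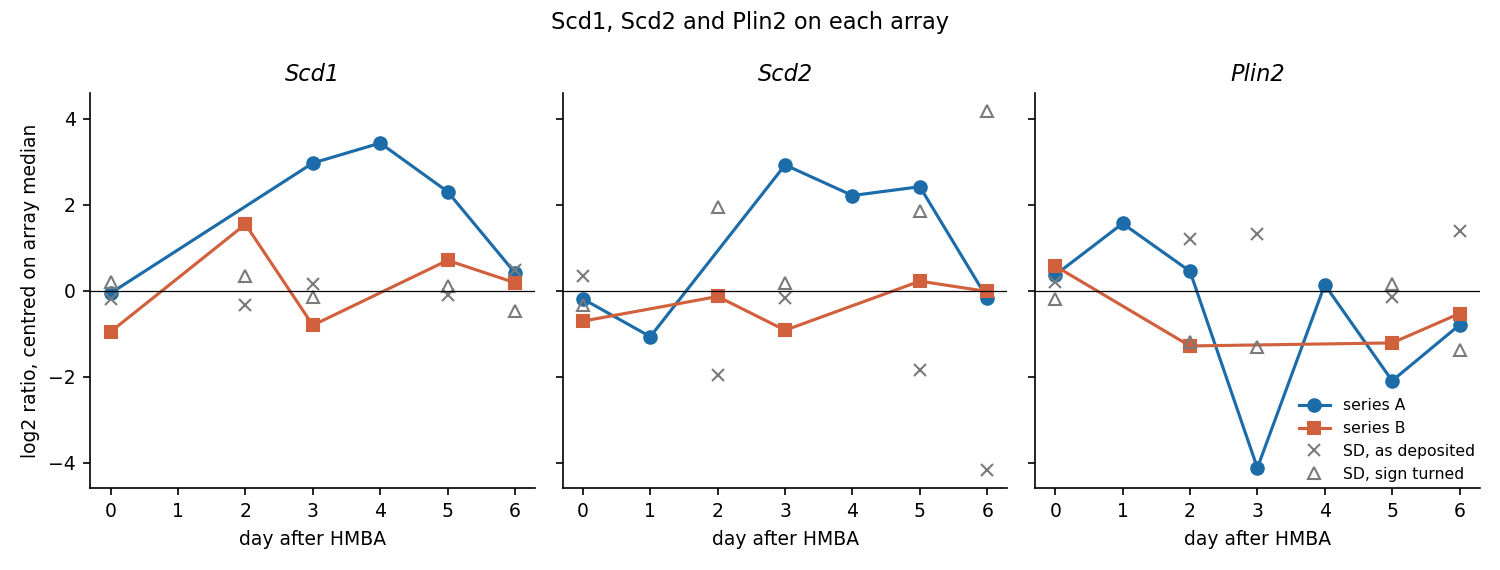
Ratios of Scd1, Scd2 and Plin2 (log2, array median subtracted) against the day after HMBA. Filled circles are series A, filled squares series B, crosses the SD arrays as deposited and open triangles the same with the sign turned; lines join the arrays of a series and pass over days without a value. The desaturase probes reach 2.21 to 3.43 on days 3 to 5 of series A and stay at or below 1.54 in series B, while Plin2 reads -4.12 on day 3 of series A. That day 3 array was one of those that stood apart.

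Ordered by day means over series A and B, Scd1 was highest on day 4 (3.43, 1 array), then on day 2 (1.54, 1 array), day 5 (1.50 ± 1.13, SD, n = 2), day 3 (1.08 ± 2.67, n = 2), day 6 (0.30 ± 0.16, n = 2) and day 0 (-0.51 ± 0.63, n = 2). Only days 4 and 2 differed by more than the pooled spread between arrays of the same day, which was 1.48 log2 for Scd1, and no other neighbours did. For Scd2 the order was day 4 (2.21, 1 array), day 5 (1.32 ± 1.55, n = 2), day 3 (1.00 ± 2.72, n = 2), day 6 (-0.10 ± 0.11, n = 2), day 2 (-0.14, 1 array), day 0 (-0.45 ± 0.36, n = 2) and day 1 (-1.07, 1 array). No neighbours in this order differed beyond the pooled spread of Scd2, 1.58 log2. Plin2 ran from day 1 (1.56, 1 array) through day 0 (0.47 ± 0.15, n = 2), day 4 (0.14, 1 array), day 2 (-0.42 ± 1.23, n = 2), day 6 (-0.66 ± 0.19, n = 2) and day 5 (-1.65 ± 0.62, n = 2) to day 3 (-4.12, 1 array). The pooled spread of Plin2 was 0.70 log2, and days 0 and 4, days 4 and 2 and days 2 and 6 did not differ beyond it.

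The mean of days 4, 5 and 6 was then set against day 0. Scd1 was 2.25 log2 above day 0, a 4.76-fold difference, and Scd2 1.59 log2 above it, a 3.02-fold difference. Plin2 was at -1.19 log2, 2.29-fold below day 0. The differences of Scd1 and Plin2 exceeded the pooled spread between arrays of the same day, and that of Scd2 was about as large as it.

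Within series A and B, late arrays did not overlap those of day 0 for any of the 3 genes. With the SD arrays joined and their sign turned, Scd1 and Plin2 did overlap. Scd1 read -0.47 on day 6, below day 0 of series A, and Plin2 0.15 on day 5, above -0.20 on day 0 of SD. Scd2 did not overlap with the sign turned, at 1.84 and 4.17 on days 5 and 6 and -0.34 on day 0 of SD. As deposited it did, at -4.17 on day 6. Late values of Scd1 ran from 0.18 to 3.43 with a median of 0.70, above day 0 values of -0.95 and -0.06. Those of Scd2 ran from -0.18 to 2.42 with a median of 0.22, above -0.71 and -0.19, and the lowest late value cleared the higher day 0 value by a very small margin. Late Plin2 ran from -2.09 to 0.14 with a median of -0.80, below 0.36 and 0.57. Among 1176 probes with at least 5 late values and both day 0 values, 4.68 percent had every late array above both day 0 arrays and 2.72 percent had every late array below them, and nothing is read from this, since the same ratios chose the genes.

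Within series A the late difference was 2.11 log2 for Scd1, 1.68 for Scd2 and -1.28 for Plin2, each over 3 late arrays. Within series B it was 1.40, 0.81 and -1.45, each over 2. Directions were the same in both series. The sizes are over unlike days, since series B had values on days 5 and 6 alone. Series A included day 4, where Scd1 read 3.43 and Scd2 2.21, so the smaller desaturase values of series B are not a like comparison. Day 4 rests on the array of series A alone for all 3 genes. With the late mean taken over days 5 and 6, an alternative added after the values were seen, Scd1 was at 1.41, Scd2 at 1.06 and Plin2 at -1.63 log2, so the values of Scd1 and Scd2 were over 1.5 times larger with the day 4 array of series A. Over days 5 and 6, as within series B, the difference of Scd1 did not exceed its spread of 1.48.

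Scd1 and Scd2 tracked each other closely in series A and B. They did not on the SD arrays, where their gap had a median size of 1.62 log2. Over the 10 arrays of series A and B that measured both, their centred ratios had a Pearson correlation of 0.92 and a Spearman correlation of 0.89. Without days 3 and 4 of series A, the arrays where Scd1 lay farthest from its median, Pearson's r was 0.84. The gap between both probes had a median size of 0.22 log2 and was largest on day 2 of series B, where Scd1 exceeded Scd2 by 1.68, and on day 4 of series A, where it did so by 1.22.

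Among all 593 probes that shared at least 10 arrays with Scd1, Scd2 had the highest correlation. In turn, Scd1 had the highest among the 996 probes that could be set against Scd2. The middle candidate correlated at 0.25 with Scd1 and at 0.15 with Scd2, and the 95th percentile of candidates was 0.74 and 0.66. Only 4 pairs of probes with the same gene symbol shared at least 10 arrays, and their correlations ranged from -0.12 to 0.55. Desaturase transcripts are much alike in sequence, and whether either probe also bound the other's transcript was not tested. All these arrays have a channel of control RNA and share the probe effects of the platform, and the probes were chosen as a family, so the correlations are a description.

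**Figure D2:**
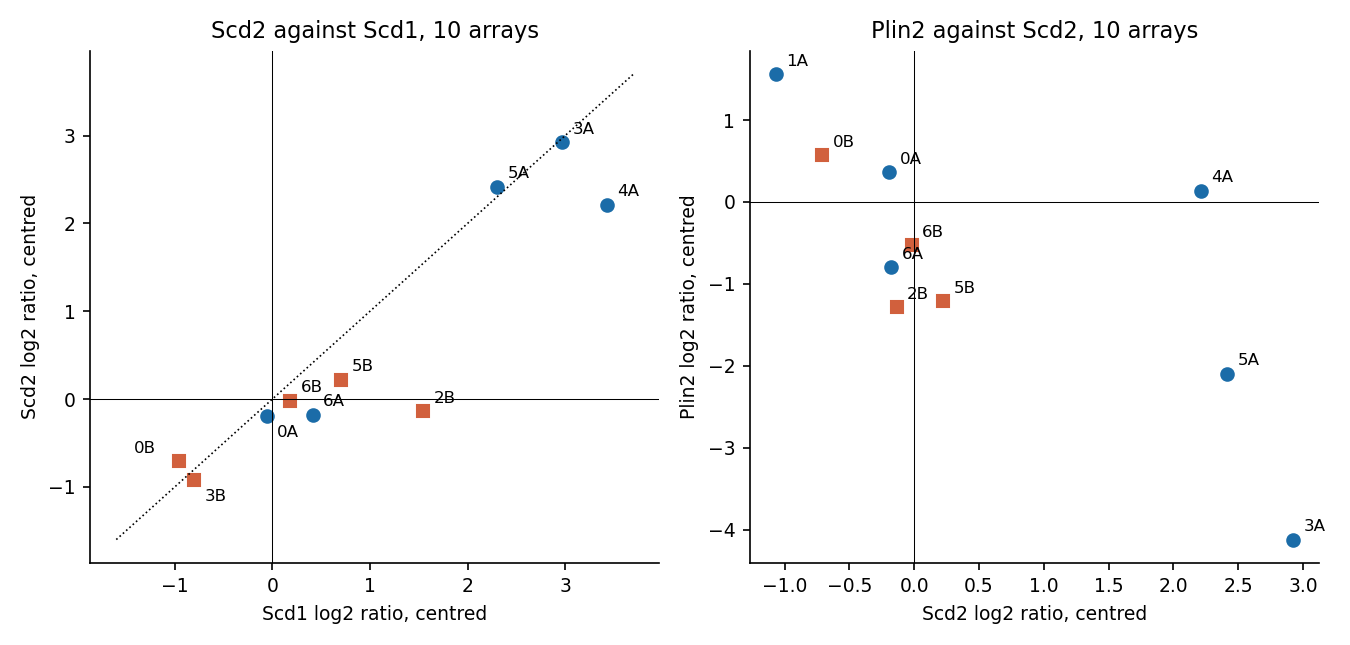
Left, Scd2 against Scd1 on the 10 arrays with both values, with the dotted line marking equal ratios; right, Plin2 against Scd2 on the 10 arrays with both values; axes are log2 ratios less the array median. Circles are series A and squares series B, labelled by day. The desaturase points follow the line apart from day 2 of series B and day 4 of series A, and Plin2 is lowest, at -4.12, where Scd2 is highest, at 2.92.

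In series A and B, the ratios of Plin2 and the desaturases were negatively correlated. Pearson's r was -0.73 between Scd2 and Plin2 over 10 arrays, with a Spearman correlation of -0.82, but it was -0.26 without days 3 and 5 of series A, so the relation in size rests on those arrays. Between Scd1 and Plin2, r was -0.57 over 9 arrays, with a Spearman correlation of -0.65. It was -0.94 without days 3 and 4 of series A, and day 4 was the point that departed from the rest, with Scd1 at 3.43 beside Plin2 at 0.14.

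Probes without a single gene symbol were passed over in naming the others. Most like Scd1 were then Glra1, a glycine receptor chain (r = 0.88), Pold2, a subunit of DNA polymerase delta (0.85), Cst3, the protease inhibitor cystatin C (0.84), and Fau, which encodes a ribosomal protein (0.84), each over 10 arrays. The most opposite were B4galt1, a galactosyltransferase (-0.91), the RNA helicase gene Ddx3x (-0.89) and 1110004F10Rik (-0.85). For Scd2 the named probes after Scd1 were Fau (0.84), Vps35, a part of the retromer complex that sorts endosomal cargo (0.83 over 11 arrays), Ewsr1 (0.83), which encodes an RNA-binding protein, and the helicase gene Dhx9 (0.82). Ewsr1 dropped to 0.33 without days 3 and 5 of series A. Ddx3x (-0.85), B4galt1 (-0.78) and Msl3 (-0.76) were the most opposite to Scd2. A further Ddx3x probe correlated at -0.08 with the one named here, so that gene's course depends on the probe.

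Plin2 was most like Srgn, which encodes the granule proteoglycan serglycin (r = 0.93 over 10 arrays, and 0.92 without days 1 and 3 of series A). Rgs11 (0.90), a regulator of G protein signalling, a probe of Elovl1 (0.89), which encodes an elongase of very long fatty acids, the immunoproteasome gene Psmb8 (0.87) and the nuclear pore gene Nup210 (0.82) followed. Rgs11 and Elovl1 were at 0.63 and 0.61 without the 2 arrays farthest from the median of Plin2. Limd1 (-0.94), Prkaca (-0.88), the catalytic chain of protein kinase A, and Tdpx-ps2 (-0.86) were the most opposite, and Tdpx-ps2 was at -0.30 without days 3 and 5 of series A.

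On the SD arrays the desaturases parted. Scd1 stayed near the middle, with -0.19, -0.34, 0.16, -0.10 and 0.47 as deposited on days 0, 2, 3, 5 and 6. Scd2 read 0.34, -1.96, -0.17, -1.84 and -4.17 on the same arrays, and on day 6 it lay at the 1.50th percentile of its array. The gap between both probes on the SD arrays had a median of 1.62 and reached 4.64 log2 on day 6, against a median of 0.22 in series A and B. Plin2 read 0.20, 1.19, 1.31, -0.15 and 1.39.

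With the sign turned, Scd2 was above 0 on days 2, 3, 5 and 6 of SD and Plin2 below 0 on days 0, 2, 3 and 6. The mean of a series B array and the turned SD array of its day was also taken. By the labels it holds each RNA once in each channel on days 2, 3, 5 and 6. On day 0 both channels held control RNA. With the sign turned, Hba-ps3 was below 0 on day 3 and Hbb-b2 on day 2, and whether turning balances the channels was not tested. For Scd2 this mean was -0.53, 0.91, -0.38, 1.03 and 2.07 on days 0, 2, 3, 5 and 6. The same mean for Plin2 was 0.19, -1.24, -0.53 and -0.96 on days 0, 2, 5 and 6. For Scd1 it was -0.38, 0.94, -0.48, 0.40 and -0.14 on days 0, 2, 3, 5 and 6. On day 3 this mean was below 0 for both desaturases, in contrast to 2.97 and 2.92 in series A. It includes the series B array itself, at -0.80 for Scd1 and -0.92 for Scd2. The turned SD array alone read -0.16 and 0.17. The 2 arrays of a pair disagreed by up to 4.18 log2 for Scd2, on day 6, so these means carry a wide error.

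**Figure D3:**
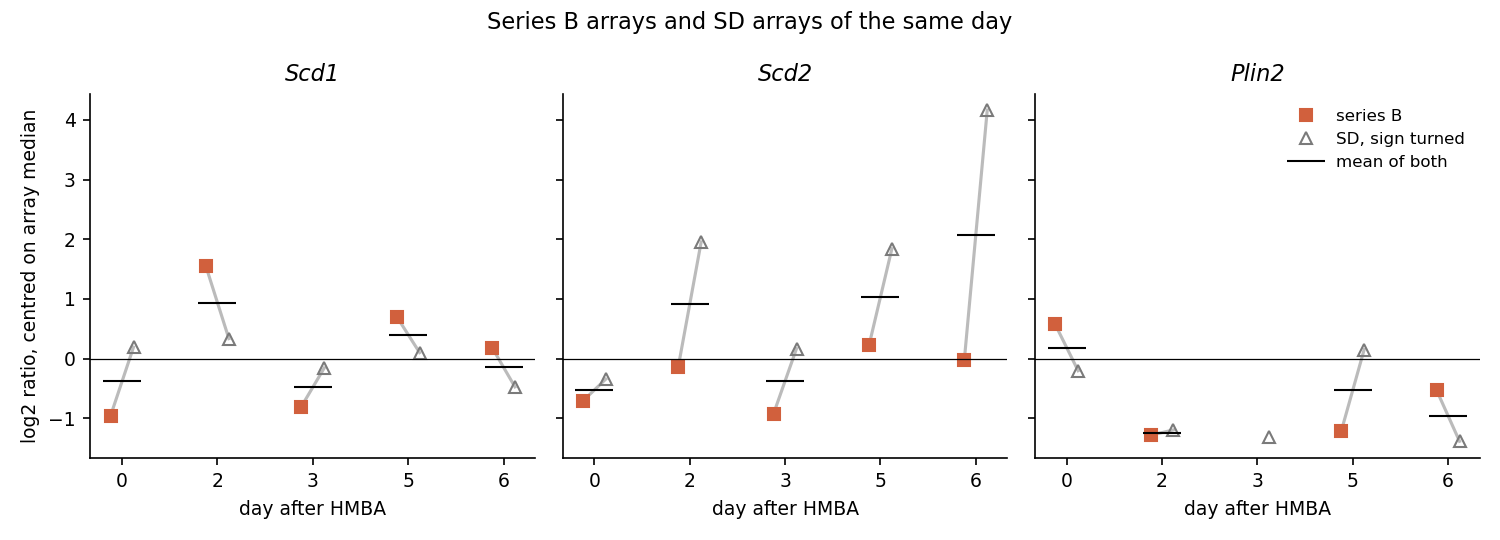
Ratios (log2, array median subtracted) of series B arrays (squares) and of SD arrays of the same day with the sign turned (open triangles), joined by grey lines, with black bars at their mean. Pairs of Scd1 lie within 1.21 of each other, those of Scd2 part by up to 4.18 on day 6, and Plin2 has means below 0 on days 2, 5 and 6 and no series B value on day 3.

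With SD arrays averaged into their days, the late difference of Scd2 was 2.09 log2 with the sign turned and 0.53 as deposited. That of Scd1 was 1.78 and 1.99, and that of Plin2 -0.85 and -0.71. The size for Scd2 hence depends on how the SD arrays are read, whereas its direction relative to day 0 was the same either way in this average.

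The RefSeq promoter table for GRCm38.p6 held an entry for 1 of the 3 genes, Plin2. Its sequence is shown to set the promoter of a lipid droplet gene beside the course above. It covers chr4:86670010-86670309 on the minus strand, from 250 bases before the transcript start to 50 after it, written along the gene, with motif matches in capitals.

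Plin2: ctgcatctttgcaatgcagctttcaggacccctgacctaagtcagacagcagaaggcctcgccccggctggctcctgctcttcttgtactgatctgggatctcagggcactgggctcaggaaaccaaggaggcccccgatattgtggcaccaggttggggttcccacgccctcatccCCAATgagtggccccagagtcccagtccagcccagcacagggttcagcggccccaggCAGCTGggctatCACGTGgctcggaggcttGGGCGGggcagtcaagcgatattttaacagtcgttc

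The letters CCAAT and GGGCGG, searched on both strands, each occurred 1 time, and 37.4 and 35.7 percent of 32851 promoters of the same length held them. CANNTG, the E-box pattern, occurred 2 times and was present in 72.3 percent of promoters. TCACNCCAC, a form of the sterol regulatory element, and the GATA forms AGATAA and TGATAA had 0 matches in this window, against 1.24, 11.2 and 9.05 percent of promoters. These matches are a description of letters and not of binding.

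The genes around the desaturases in lipid metabolism were described next, from 7 lists of lipid genes. None of the 16 list probes that entered the limma test of late against day 0 passed an adjusted p of 0.05, and 0 passed even at an unadjusted p of 0.05. Over all 1211 probes tested, 0 percent were called by limma, with 28 at an unadjusted p under 0.05. Hba-ps3, at 4.43 log2 late and above day 0 on 6 of 6 arrays, had an adjusted p of 0.18 in limma. It was thus not called either, and an uncalled probe is not shown to be unchanged. In the early comparison, days 1 and 2 against day 0, limma called 0 of the 16 list probes and 0 percent of 1060 probes, with 0 and 37 at an unadjusted p under 0.05. A count of 0 called among list genes therefore equals the background. Nothing in the labels says that arrays came from separate cultures, so these p-values measure how much the arrays varied, a variation that may be technical.

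Of the desaturase electron chain and the other desaturases, 3 of 14 listed genes had a probe. Fads2, which desaturates polyunsaturated fatty acids, was at 0.60 log2 late (SE 1.14, above day 0 on 4 of 5 arrays). Such counts are against the mean of day 0, which for Fads2 was 1 array. Degs1, which desaturates ceramide precursors, was at 0.25 (SE 0.70, 3 of 6 arrays, adjusted p = 0.9999 in limma). Both probes with a late difference were above 0, with a median of 0.42, against 0.16 over all 2615 probes with one. Of those 2615 probes 1554 were above 0, which is the background for the counts in each list. Fads3 had no day 0 value and so no late difference, and read 1.44, 1.92 and -1.44 on days 4, 5 and 6 of series A.

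Fatty acid synthesis and elongation, which make the substrates of the desaturases, had 5 of 9 probes above 0 and 4 below, with a median of 0.0014. Idh1, an isocitrate dehydrogenase that supplies NADPH, was at 1.03 (SE 1.04), above its 1 day 0 value, of series A, on 6 of 6 late arrays. Acsl4, which activates polyunsaturated fatty acids to acyl-CoA, was at 0.71 (SE 0.80), above the day 0 mean on 6 of 6. Both had an adjusted p = 0.9999 in limma, and 3 late values of Acsl4 lay below its day 0 value in series B. A further Acsl4 probe read below 0 on its 6 arrays of series A and B. Fasn, the fatty acid synthase, read 0.53, 1.22 and -1.27 on days 4, 5 and 6 of series A and -0.66 on day 5 of series B, for a late difference of 0.38 (SE 1.33). On day 2 it read 1.11 in series A and -1.66 in series B, so the series differed for Fasn as well. Hacd1, an enzyme of elongation, was at 0.48, and the Elovl1 probe with the larger difference at -0.38.

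The list of SREBP factors and sterol synthesis had a median of 0.73 over 5 probes, with 3 above 0 and 2 below. Sqle, the squalene epoxidase, was at 0.96 (SE 1.24), Ebp, a sterol isomerase, at 0.74 (SE 0.96, adjusted p = 0.9999 in limma) and Dhcr7, the last enzyme of cholesterol synthesis, at 0.73 (SE 0.90). Mbtps1, the protease that releases SREBPs, was at -0.14. The median was 0.08 and 1.23 when the day 0 array of series B or of series A was left out, and -0.24 when late ratios were set against 0 and not against day 0.

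The sterol list was also read on day 3, where the series parted for the desaturases. In series A 5 of 7 of its probes were above 0, with Sqle at 2.65, Mvk, the mevalonate kinase, at 2.18 and Ebp at 1.54. In series B 0 of 4 were above 0, with Mvk at -1.54 and Ebp at -1.53, and the list's medians were 0.52 and -1.53. Low values in series B were not limited to day 3, with 0 of 4 above 0 on day 0 (median -1.20) and 0 of 7 on day 6 (median -0.73). On the SD array of day 3, 0 of 6 were above 0 as deposited (median -1.41), and with the sign turned all 6 were. Fatty acid synthesis and elongation ran the other way on the same arrays, with 1 of 5 probes above 0 in series A and 5 of 7 in series B. Mvk and day 3 were singled out after their values were seen.

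Of the genes of lipid droplets and triglycerides, which surround Plin2, 5 of 8 probes were above 0 and 3 below, with a median of 0.26. Rab18, a small GTPase of droplets, was at 1.26 (SE 1.23) and Agpat1, which acylates lysophosphatidic acid, at 1.08 (SE 0.92, above the day 0 mean on 4 of 4 arrays but not above both day 0 values on each). Bscl2, the seipin of droplet assembly, was at 0.41 (SE 0.87), and Hilpda, an inhibitor of droplet lipolysis, at -0.64 (SE 0.96, below day 0 on all but 1 of 5 arrays). The median turned to -0.19 without day 0 of series A and -0.13 against 0. No other perilipin gene had a late value.

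Fatty acid oxidation had 7 of 11 probes above 0, with a median of 0.24. Acadm and Acadvl, dehydrogenases of medium and very long chains, were at 0.90 (SE 1.24) and 0.81 (SE 1.04), Slc25a20, the carnitine carrier, at 0.65 and Acot1, an acyl-CoA thioesterase, at -0.96 (SE 0.96). Its median was -0.08 without day 0 of series B and -0.28 against 0. Phospholipid synthesis had a median of -0.05 over 5 probes, which ran from -0.63 to 0.58 when the day 0 array of series B or of series A was left out, with Pcyt1a, the regulated enzyme of phosphatidylcholine synthesis, at 0.61 and the phosphatidylserine synthases Ptdss1 and Ptdss2 at 0.57 and -0.05. Fatty acid uptake and binding had a median of 0.10 over 5 probes, or -0.11 with equal spread of the arrays and -0.25 with quantile normalization. Acbd3, an acyl-CoA binding domain protein of the Golgi, was at -0.90, below its 1 day 0 value, of series B, on 4 of 4 arrays. The fatty acid transporters Slc27a5 and Slc27a3 were at -0.34 and 0.29. Got2, the mitochondrial aspartate aminotransferase that also binds fatty acids at the cell surface, was at 0.21.

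**Figure D4:**
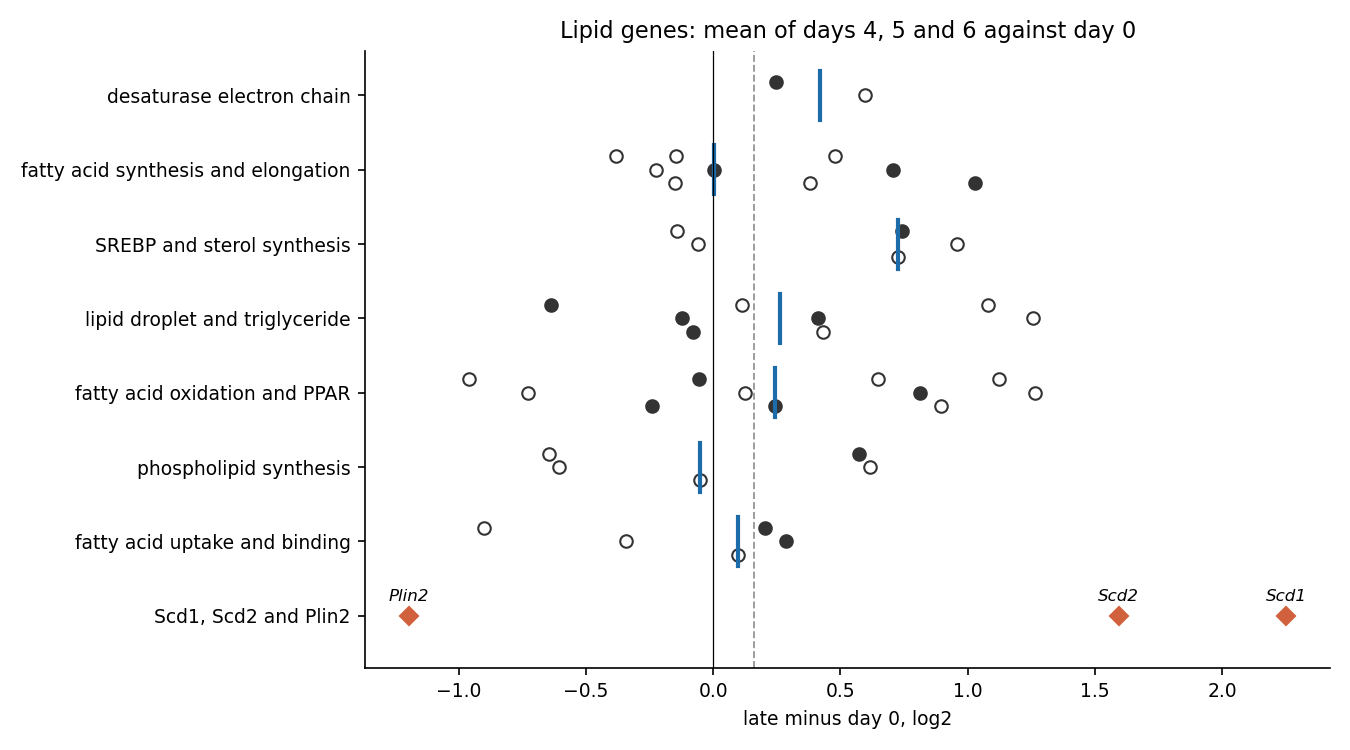
Late minus day 0 differences in log2 for probes of 7 lipid gene lists (circles, filled where the probe entered the limma test) and for Scd1, Scd2 and Plin2 (diamonds). Blue bars mark list medians and the dashed line the median of all 2615 probes with a late value, 0.16; list probes lie between -0.96 and 1.27, while Scd1 is at 2.25, Scd2 at 1.59 and Plin2 at -1.19, which were chosen with these values known.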

How the data were processed

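The authors deposited 1 table of log2 ratios for 18 two-colour arrays. The scale was read from its values, since low values of series A and B were log2 of a ratio with 3 decimals (100 percent within 0.02 thousandths) and high values of SD arrays minus such a log2. The sources used here do not give the dyes, the numerator, any prior normalization or why the SD sign is turned. Array medians, from -0.15 to 0.70 log2, were subtracted. Of 6868 probes, 6108 had 1 gene symbol, 41 several and 719 none in the platform annotation, and 6062 matched a RefSeq gene by Entrez identifier with 0 symbols changed.

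For the lists, 13 arrays without SD were fitted as day means with limma 3.58.1 in R 4.3.3 (Benjamini-Hochberg, threshold 0.05) over probes with at least 11 values and 1 on day 0. Scd2 and Plin2 (11 values each) met this and Scd1 (10) did not. The fit was also run on simulated data with independent noise on each array, which the real arrays need not have. No result here rests on that run. List genes measured on at least 8 arrays were named by the 4 largest late differences per list, with Fasn and Fads2 always. Of those named by this rule, Fads2, Idh1, Fasn, Sqle, Mbtps1, Rab18, Acadvl, Slc25a20, Pcyt1a, Ptdss1, Acbd3 and Slc27a5 had only 1 day 0 value. Fads3 (4 arrays), the further Acsl4 probe (6 arrays), Mvk and Hsd17b10 were named outside the rule. Likeness used probes sharing at least 10 arrays, naming the 5 most like and 3 most opposite. The genes, lists and rules were chosen with earlier results of these data known. Alternatives were other scalings, filters and priors, the SD arrays, the series letter and each array left out.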

Additional observations from a re-analysis of the deposited data

Results flagged for a closer look

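Arrays titled SD were outside the comparisons of series A and B, and some of their readings exceeded every day 0 array in size. Day 0 arrays, SD included, did not pass 0.71 for Scd2 or 0.57 for Plin2. Scd2 read -1.96 on day 2, -1.84 on day 5 and -4.17 on day 6 of SD as deposited. Plin2 read 1.19 on day 2, 1.31 on day 3 and 1.39 on day 6. Scd1 gave no such value, its largest day 0 reading being 0.95 in size.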

How the results depend on the processing

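Late differences of Scd1, Scd2 and Plin2 kept their direction under the 7 other scalings, fits and uses of SD arrays that bear on them, with 1.74 to 2.42, 0.53 to 2.09 and -1.36 to -0.71 log2. Leaving out single arrays gave 1.80 to 2.70, 1.23 to 1.96 and -1.34 to -1.05, but without day 4 of series A no late value could be fitted. Within the SD arrays alone, an added reading, days 5 and 6 against day 0 were at -0.38, 3.35 and -0.41 with the sign turned and at 0.38, -3.35 and 0.41 as deposited.

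The late count of 0 called probes was 1 with the series letter as a replicate block, 1 with a trended robust prior, 0 to 1 when single arrays were left out (1 without the day 3 array of either series) and 309 against 0. The early count stayed at 0. Of lipid list probes, 5 were called against 0: Idh1, Acadvl, Slc27a3, Acsl4 and Hsd17b10. That test leaves out the error of the day 0 arrays, where Slc27a3 read 1.53 and Hsd17b10 -1.61 on average. The letter did not pair arrays throughout (correlations of deviations from -0.0077 to 0.37), and it changed no other call. Probes at an unadjusted p under 0.05 were 28 late, from 3 without day 0 of series B to 66 with quantile normalization and 500 against 0, and 37 early, from 0 without day 0 of series B to 126 with quantile normalization. The median late difference of tested probes was 0.21, or 0.46 without centring. With 1 or 2 arrays a day, the number of arrays limits what can be told.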
